A study of Mus musculus with 8 samples.

Results

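The 10 genes described here encode acute phase proteins, the plasma proteins whose output by the liver changes with inflammation. They are Saa1, Saa2, Saa3, Orm1, Orm2, Hp, Hpx, Lcn2, Crp and Apcs. They were chosen by name from the 33212 genes of a count table of liver RNA-seq, and the 10 symbols each matched 1 gene of the table. The table held 4 livers of Nnmt KO mice and 4 livers of control mice. Nnmt KO mice were Alb-Cre::Nnmt flox/flox (labelled Nnmt LKO). Control mice were Nnmt flox/flox without Cre, which the sample labels call WT. All 8 mice were male C57BL/6 mice kept for 8 weeks on the methionine- and choline-deficient (MCD) diet, which injures the liver. Mice on a normal diet were not analysed here, so the values say nothing on the diet itself. Alb-Cre acts in hepatocytes, and the paper describes the knockout as specific to them. The state of Nnmt in the other cells of the liver was not tested here. Nnmt encodes nicotinamide N-methyltransferase.

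In an acute phase response, macrophages and other cells release interleukin 6, interleukin 1 and tumour necrosis factor. Hepatocytes then raise or lower the transcription of genes for secreted plasma proteins, mainly through STAT3, NF-kB and the C/EBP factors, and glucocorticoids strengthen this. Serum amyloid A proteins travel on high-density lipoprotein, orosomucoids bind drugs and lipids, haptoglobin binds free haemoglobin, hemopexin binds free heme, lipocalin 2 binds bacterial siderophores, and the pentraxins Crp and Apcs bind microbes and dying cells. In mice, Saa1, Saa2, Saa3, Orm1, Hp and Lcn2 are strong responders and Apcs takes the place that CRP holds in humans.

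Each library held between 75020072 and 87934362 counts in total. Levels are given in CPM, a gene's count scaled to the size of its library, and 3 counts come to 0.04 CPM or less. CPM values were also scaled by TMM, edgeR's correction for differences in library composition, and are given as mean ± SD over the 4 mice of a genotype. Libraries are lettered a to d within a genotype, since the columns carry no mouse number. Nnmt itself was at 31.8, 44.8, 68.9 and 83.0 CPM in Nnmt KO a to d and at 112, 224, 134 and 84.9 CPM in control a to d, which gave a log2 fold change of -1.28 (standard error 0.33, edgeR's quasi-likelihood test, adjusted p = 0.123, unadjusted p = 0.00256). All Nnmt KO livers were lower than all control livers, although Nnmt KO d (83.0) lay just under control d (84.9). The library Nnmt KO a stood apart. Its TMM factor was 1.209, while Nnmt KO b, c and d had 0.952 to 0.977, and its summed CPM of 8 hepatocyte markers was the lowest of all, 64700 against 79100 to 118000. Its sums for neutrophil markers (27.9), cholangiocyte markers (286) and stellate and fibroblast markers (940) were the highest of the 8 libraries. The main results are therefore also given without it. In whole liver, fewer cells of a type and less RNA per cell cannot be told apart.

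The stretches upstream of Hpx, Saa1, Saa2 and Saa3 are shown. These 4 genes had the smallest unadjusted p of the 10 by edgeR's test. C/EBP factors are known to act upstream of acute phase genes, and 1 of these factors, Cebpa, is described below. Hpx was lower in Nnmt KO mice while the Saa genes had higher means, and a part of Cebpa in these values was not tested. Promoter sequences for 8 of the 10 genes were found in a RefSeq table of GRCm38.p6. The letters of a core C/EBP motif, TTNNGNAA on either strand, occurred within 250 bases before the start in 7 of these 8 genes (not in Apcs), against 36.8% of 32851 promoter windows. The letters of a STAT motif, TTCNNNGAA, were found in 1 of 8, Apcs (7.02% of windows), and those of an NF-kB motif (GGG, 2 free bases, TT, 1 free base and CC, on either strand) in 0 of 8 (4.11% of windows). These motifs can overlap by chance with one another, and a match is a match of letters only. Only these letters were searched for each factor, so sites with other letters were not counted. In the lines here, printed 5′ to 3′ on the strand of the gene, capitals mark the C/EBP letters, and only bases before the start in both RefSeq and GENCODE are shown. They are Saa1 at chr7:46742981-46743180 (minus strand), Saa2 at chr7:46751633-46751789 (plus strand), Saa3 at chr7:46715701-46715876 (minus strand) and Hpx at chr7:105600138-105600316 (minus strand).
Saa1: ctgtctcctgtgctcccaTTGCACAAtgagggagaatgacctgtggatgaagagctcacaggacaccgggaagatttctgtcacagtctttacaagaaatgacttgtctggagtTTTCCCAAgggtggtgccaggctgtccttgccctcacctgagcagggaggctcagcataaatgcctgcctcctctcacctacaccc
Saa2: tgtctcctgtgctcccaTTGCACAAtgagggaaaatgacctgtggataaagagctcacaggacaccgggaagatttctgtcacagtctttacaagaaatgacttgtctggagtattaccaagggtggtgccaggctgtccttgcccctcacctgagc
Saa3: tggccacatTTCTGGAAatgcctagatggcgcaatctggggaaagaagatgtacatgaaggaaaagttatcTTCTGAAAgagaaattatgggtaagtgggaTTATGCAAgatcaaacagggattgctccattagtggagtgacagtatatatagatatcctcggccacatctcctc
Hpx: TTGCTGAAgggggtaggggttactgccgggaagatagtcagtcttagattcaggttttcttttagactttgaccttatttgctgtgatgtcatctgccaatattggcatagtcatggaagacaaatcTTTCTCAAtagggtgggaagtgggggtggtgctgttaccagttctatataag
Upstream of Saa1 and Saa2, which face away from each other on chromosome 7, 94.8% of aligned bases were identical over the 250-base windows. Between Saa1 and Saa3 it was 48.9%. Saa1 and Saa2 share the capital-letter run TTGCACAA, and the second run of Saa1 was not matched in Saa2. Saa3 has 3 runs in its printed stretch and Hpx has 2.

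Hpx, which encodes the heme carrier hemopexin, was lower in Nnmt KO mice, and the serum amyloid A genes Saa1, Saa2 and Saa3 had higher means. Libraries overlapped between genotypes and intervals included 0 for Saa1, Saa2, Saa3 and the other 6 genes, Orm1, Orm2, Hp, Lcn2, Crp and Apcs. By edgeR's test, 0 of the 10 genes had an adjusted p under 0.05, where 0.32% of the 15291 tested genes did, and 1 of 10 (Hpx) had an unadjusted p under 0.05, where 12.6% of tested genes did. With DESeq2, 1 of 10 (Hpx) had an adjusted p under 0.05, against 3.46% of 14692 genes, and 2 of 10 (Hpx and Saa1) an unadjusted p under 0.05, against 14.2% of 15285 genes. The values of the 2 genotypes were fully separate for 1 of 10 genes, Hpx, against 8.16% of tested genes (4.81% with Nnmt KO below and 3.34% with Nnmt KO above). All 10 genes passed the filter on low counts, with 4 log2 fold changes above 0 and 6 below. Their median was -0.05, beside 0.02 over all tested genes. With 10 genes, 1 called gene is a share close to that of all tested genes.

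**Figure D1:**
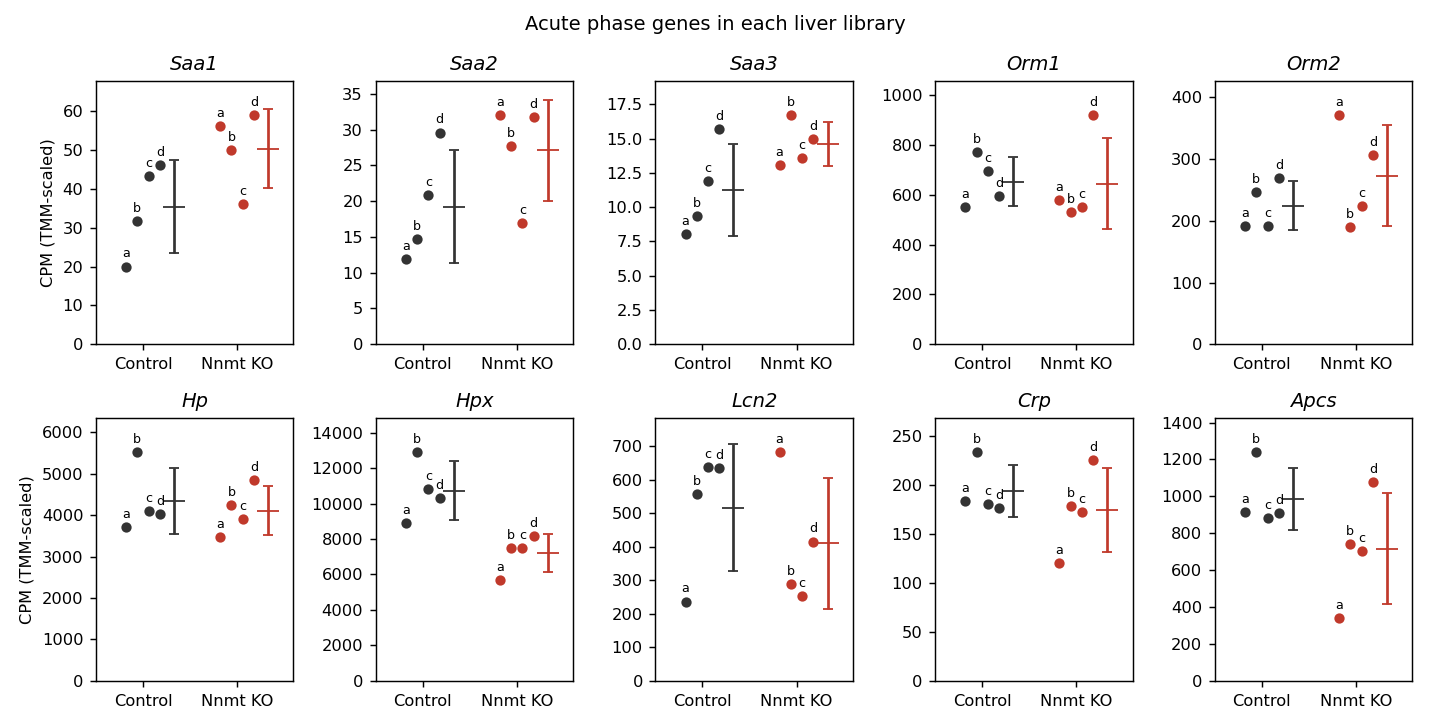
CPM (TMM-scaled, vertical axis from 0) of the 10 genes in each library, control in black and Nnmt KO in red, with letters for libraries and bars for mean ± SD (n = 4). Only for Hpx do the 4 Nnmt KO points (5690 to 8150) lie below all 4 control points (8920 to 12900).

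The serum amyloid A genes were at low levels in both genotypes. Saa1 (ENSMUSG00000074115, chr7:46740497-46742980, GRCm38) was at 56.2, 50, 36.1 and 58.9 CPM in Nnmt KO a to d and at 20, 31.8, 43.3 and 46.2 CPM in control a to d. Of the 4 Nnmt KO livers, 3 were above every control liver, and Nnmt KO c was within the control range. The means were 50.3 ± 10.2 and 35.3 ± 11.9 CPM, 1.42-fold higher in Nnmt KO mice, and the log2 fold change was 0.51 (standard error 0.24, 95% confidence interval -0.02 to 1.04, edgeR's adjusted p = 0.41, unadjusted p = 0.057). Saa2 (ENSMUSG00000057465, chr7:46751790-46754313), the other acute phase serum amyloid A made by hepatocytes, was at 32.0, 27.7, 17.0 and 31.8 CPM in Nnmt KO a to d and at 11.9, 14.7, 20.8 and 29.6 CPM in control a to d. Nnmt KO c was again the low library of its genotype, and control d lay among the Nnmt KO livers. This gave a log2 fold change of 0.50 (standard error 0.28, interval -0.11 to 1.10, edgeR's adjusted p = 0.485). Saa3 (ENSMUSG00000040026, chr7:46711998-46715700), which macrophages and fat cells also make, was at 13.1, 16.7, 13.6 and 15.0 CPM in Nnmt KO a to d and at 8.06, 9.38, 11.9 and 15.7 CPM in control a to d. The Nnmt KO livers lay close together and above control a, b and c, but only Nnmt KO b was also above control d. Its log2 fold change was 0.37 (standard error 0.19, interval -0.05 to 0.80, edgeR's adjusted p = 0.454).

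The 3 differences depended on single livers of both genotypes. Without control d, the log2 fold changes were 0.66 for Saa1, 0.78 for Saa2 and 0.57 for Saa3, with unadjusted p of 0.0237, 0.0102 and 0.00549 by edgeR's test and adjusted p from 0.178 to 0.278. Without control a they were 0.34, 0.34 and 0.26, and none had an unadjusted p under 0.05. Without Nnmt KO c, Saa1 was at 0.64 and Saa2 at 0.66 (edgeR's unadjusted p = 0.0239 and 0.029), and Saa3 at 0.40. Without Nnmt KO a they were 0.45, 0.41 and 0.42. Saa1 and Saa2 share 95.1% of aligned bases in their coding sequences, so reads may have been split between them in counting. With both added to 1 row, the summed level was 77.4 ± 17.2 CPM in Nnmt KO and 54.6 ± 19.3 CPM in control mice, and the log2 fold change was 0.51 (0.505, standard error 0.249, edgeR's adjusted p = 0.429). The ratio of Saa2 to Saa1 counts was 0.534 ± 0.0425 in Nnmt KO and 0.544 ± 0.0858 in control mice (n = 4 each), with overlapping ranges. The ratio of Saa3 to Saa1 counts was 0.299 ± 0.0679 and 0.328 ± 0.0563. The ranges of this ratio overlapped as well. Saa4 (chr7:46727998-46732603), a serum amyloid A made at a steady level outside inflammation and lying between Saa3 and Saa1, was at 78.7 ± 9.91 CPM in Nnmt KO and 95.7 ± 26 CPM in control mice, and the log2 fold change was -0.28 (standard error 0.17, edgeR's adjusted p = 0.534). Its sign was opposite to that of the other 3 genes, and its libraries overlapped.

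The orosomucoids, also called alpha-1-acid glycoproteins, showed no common direction. Orm1 (ENSMUSG00000039196, chr4:63344560-63348163) was at 579, 532, 549 and 919 CPM in Nnmt KO a to d and at 551, 770, 695 and 595 CPM in control a to d. Nnmt KO d was the highest of all 8 libraries, and the other Nnmt KO livers lay in the lower part of the control range or just under it. The difference in log2 CPM came to -0.02 (standard error 0.19, interval -0.44 to 0.41, edgeR's adjusted p = 0.979), and without Nnmt KO d it was -0.24. Orm2 (ENSMUSG00000061540, chr4:63362449-63365878) was at 371, 190, 224 and 307 CPM in Nnmt KO a to d and at 192, 246, 191 and 270 CPM in control a to d. Nnmt KO a and d were above the control range and Nnmt KO b was just below it. This was a log2 fold change of 0.28 (standard error 0.21, interval -0.18 to 0.74, edgeR's adjusted p = 0.617), and without Nnmt KO a it was 0.10. In Nnmt KO a, Orm2 was the highest and Orm1 near the middle, so that the ratio of Orm2 to Orm1 counts was 0.641 there, against 0.334 to 0.409 in the other Nnmt KO livers and 0.275 to 0.453 in control livers. Orm1 and Orm2 share 89.9% of aligned coding bases, and Orm3, the third copy between them, was at 7.32 ± 1.49 CPM in Nnmt KO and 6.38 ± 2.67 CPM in control mice. The 3 copies added to 1 row gave a log2 fold change of 0.07 (0.066, standard error 0.18, edgeR's adjusted p = 0.91).

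**Figure D2:**
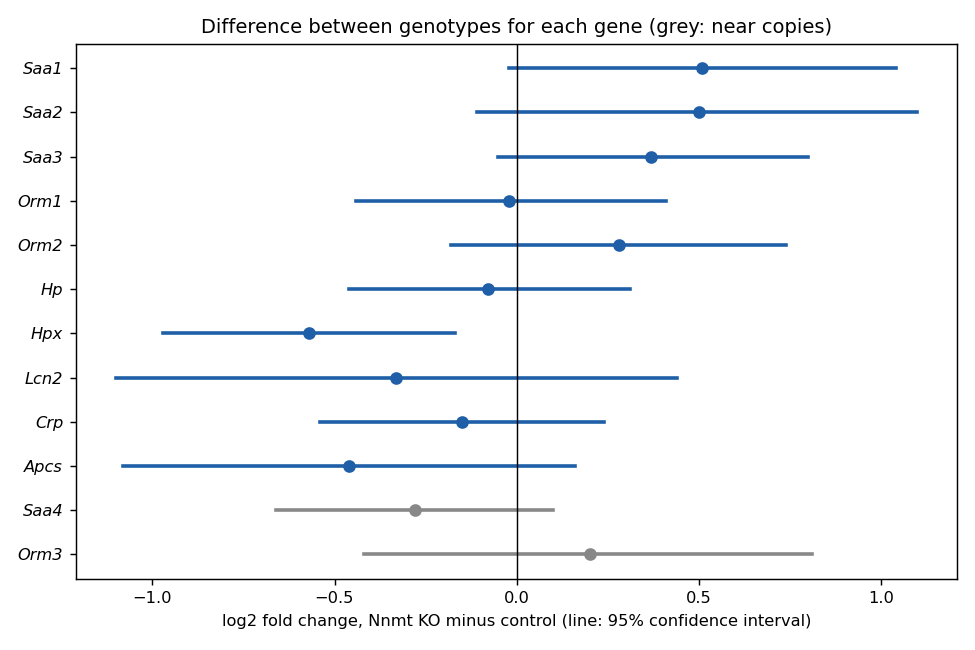
Log2 fold change (Nnmt KO minus control, horizontal axis) with its 95% confidence interval from edgeR for the 10 genes in blue and the near copies Saa4 and Orm3 in grey. The interval of Hpx, from -0.97 to -0.17, is the only one of the 12 that leaves out 0.

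The scavengers of haemoglobin and heme were the most abundant of the 10 genes, and they differed from each other. Hpx (ENSMUSG00000030895, chr7:105591613-105600137) was at 5690, 7510, 7480 and 8150 CPM in Nnmt KO a to d and at 8920, 12900, 10800 and 10300 CPM in control a to d. Every Nnmt KO liver was below every control liver. Mean Hpx was 7210 ± 1060 CPM in Nnmt KO livers and 10700 ± 1650 CPM in controls. These means are 0.721% and 1.07% of a library's size after TMM scaling, not of its raw counts. The log2 fold change was -0.57 (standard error 0.18, interval -0.97 to -0.17), or 0.673-fold, with edgeR's unadjusted p = 0.00916, edgeR's adjusted p = 0.215 and DESeq2's adjusted p = 0.0136. It was -0.47 without Nnmt KO a (edgeR's unadjusted p = 0.0102), and -0.46 to -0.64 over the 8 fits that each left out 1 library. Of all tested genes, 7.13% had a negative log2 fold change with an unadjusted p under 0.05.

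Hp (ENSMUSG00000031722, chr8:109575128-109579172) was at 3460, 4240, 3900 and 4840 CPM in Nnmt KO a to d and at 3720, 5520, 4100 and 4020 CPM in control a to d. The 2 ranges overlapped, although Nnmt KO a was below every control liver and control b was above every Nnmt KO liver. The log2 fold change was -0.08 (standard error 0.18, interval -0.46 to 0.31, edgeR's adjusted p = 0.891). The ratio of Hpx to Hp counts, which does not depend on how libraries are scaled, was 1.64, 1.77, 1.92 and 1.68 in Nnmt KO a to d and 2.40, 2.34, 2.63 and 2.56 in control a to d. The 2 sets did not overlap, with means of 1.75 ± 0.122 and 2.48 ± 0.134 (n = 4 each). In Nnmt KO a, where both genes had their lowest TMM-scaled values, the ratio was close to those of the other Nnmt KO livers. The ratio was chosen after the values were seen and was given no test.

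Genes near Hpx also tended to be lower. Of the 175 other tested genes in the same 25 Mb stretch of chromosome 7 (from 100 to 125 Mb), 33.7% had a negative log2 fold change with an unadjusted p under 0.05, against 7.13% of all tested genes, and their median log2 fold change was -0.23. Hpx lay -0.34 from that median, and 10.3% of the 175 genes were lower than Hpx. The Saa genes lie elsewhere on the chromosome, in a stretch (from 25 to 50 Mb) where 333 other tested genes had a median of -0.06. Saa1, Saa2 and Saa3 lay 0.57, 0.55 and 0.43 above that median. Of the 333 genes, 12.9% were lower at an unadjusted p under 0.05 by edgeR's test. For the other members, this share of genes in the same stretch ran from 2.5% (Crp and Apcs) to 21.8% (Orm1 and Orm2). The part of the neighbouring genes' shift in the difference of Hpx was not tested.

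**Figure D3:**
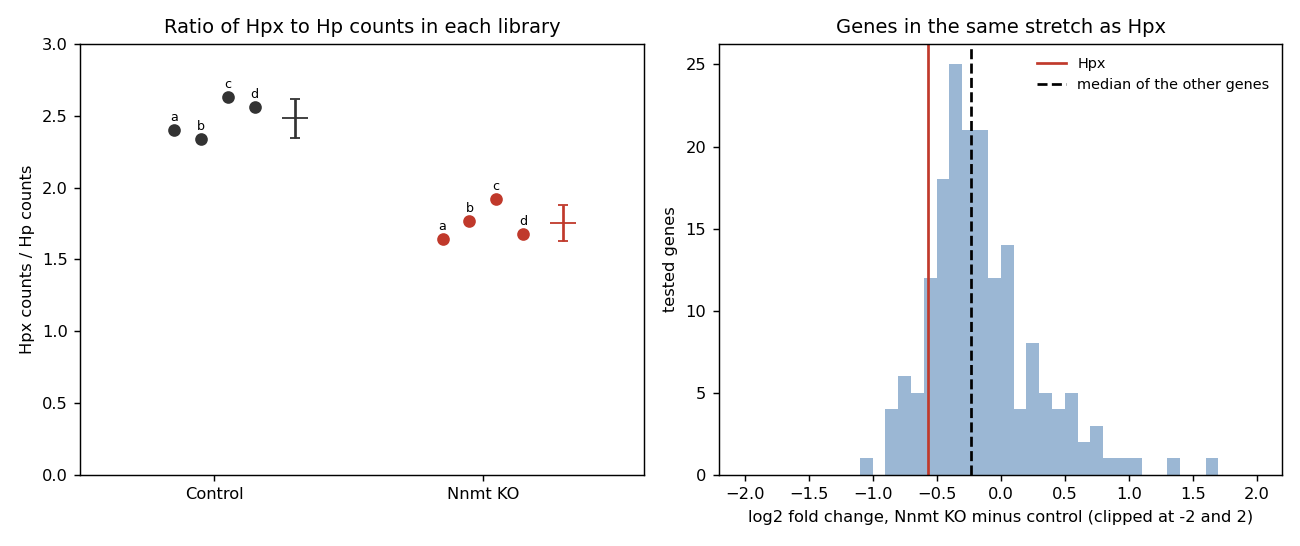
Left, the ratio of Hpx to Hp counts (vertical axis from 0) in each library, control in black and Nnmt KO in red, with mean ± SD (n = 4). Right, a histogram of the log2 fold changes (Nnmt KO minus control) of the 175 other tested genes in the 25 Mb stretch that holds Hpx, with Hpx (-0.57) as a red line and the median (-0.23) as a dashed line. The ratio was 1.64 to 1.92 in Nnmt KO and 2.34 to 2.63 in control livers.

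Lcn2 (ENSMUSG00000026822, chr2:32384633-32388252) varied widely in both genotypes. It was at 683, 290, 253 and 416 CPM in Nnmt KO a to d and at 237, 558, 637 and 635 CPM in control a to d. Nnmt KO a was the highest of all 8 libraries, and control a was the lowest. The highest value was 2.70 times the lowest in Nnmt KO and 2.69 times in control mice. The fitted log2 fold change was -0.33 (standard error 0.35, interval -1.10 to 0.44, edgeR's adjusted p = 0.734). Without Nnmt KO a it was -0.69, with edgeR's unadjusted p = 0.0428 and adjusted p = 0.356, and over the other 7 fits that left out 1 library it lay between -0.55 and -0.16. Neutrophils store the Lcn2 protein, and their 12 markers summed to 27.9 CPM in Nnmt KO a and 24.9 CPM in control d, against 10.1 to 15.6 CPM in the other 6 libraries. Of these markers Ly6g was at 0 in every library, Mpo and Elane were under the filter, and Csf3r was the most abundant. In Nnmt KO a, both Lcn2 and the neutrophil sum were the highest of the 8 libraries, but control b and c had high Lcn2 with sums of 15.6 and 13.4 CPM. The part of neutrophils in the Lcn2 values was not tested.

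The pentraxins had lower means in Nnmt KO mice, within the spread between livers. Apcs (ENSMUSG00000026542, chr1:172893961-172895041), which encodes serum amyloid P, was at 340, 741, 706 and 1080 CPM in Nnmt KO a to d and at 915, 1240, 883 and 910 CPM in control a to d. In 3 of 4 Nnmt KO livers Apcs was below every control liver, and Nnmt KO d was above 3 of the 4 control livers. For Apcs the log2 fold change was -0.46 (standard error 0.28, interval -1.08 to 0.16, edgeR's adjusted p = 0.531). It was -0.23 without Nnmt KO a and -0.73 without Nnmt KO d (edgeR's unadjusted p = 0.0203, adjusted p = 0.343). Nnmt KO mice spread wider than controls, with the highest value 3.18 times the lowest, against 1.40 times in control mice. Crp (ENSMUSG00000037942, chr1:172698055-172833031, a span that also holds the pseudogene Gm38051) encodes C-reactive protein. It was at 121, 179, 173 and 226 CPM in Nnmt KO a to d and at 184, 234, 181 and 177 CPM in control a to d. Nnmt KO a was the lowest library and control b the highest. Its log2 fold change was -0.15 (standard error 0.18, interval -0.54 to 0.24, edgeR's adjusted p = 0.761), and -0.01 without Nnmt KO a.

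The livers differed in the pattern of the 10 genes as well as in level. Nnmt KO a had the highest value of the 8 libraries for Saa2, Orm2 and Lcn2 and the lowest for Hp, Hpx, Crp and Apcs. Control b had the highest value for those same 4 genes, Hp, Hpx, Crp and Apcs. Control a had the lowest value for Saa1, Saa2, Saa3 and Lcn2. Among Nnmt KO livers, d was the highest for 6 genes, Saa1, Orm1, Hp, Hpx, Crp and Apcs. With library size alone for scaling, Nnmt KO a was the highest for Saa1 as well and no longer the lowest for Hp, and control a became the lowest control liver for all 10 genes. The opposite positions of Saa2, Orm2 and Lcn2 against Hpx, Crp and Apcs in Nnmt KO a held under both scalings.

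**Figure D4:**
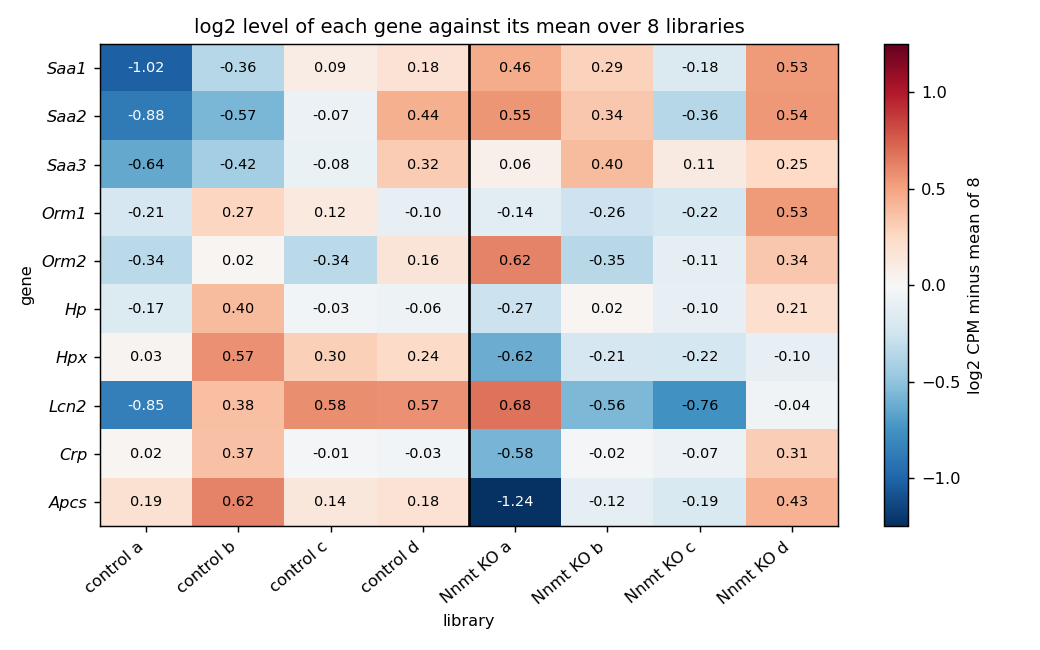
Log2 CPM of each gene (rows) in each library (columns, 4 control then 4 Nnmt KO) minus the mean of the 8 libraries, with red above and blue below it. The row of Hpx is above 0 in every control library and below 0 in every Nnmt KO library, and the column of Nnmt KO a holds both high values (Lcn2, Orm2, Saa2) and low ones (Apcs, Hpx, Crp).

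Levels were compared between genes as CPM per kb of the principal transcript in GENCODE. In control mice Hpx was at 7140 ± 1100 CPM per kb and Hp at 3220 ± 597, followed by Apcs at 1020 ± 173, Orm1 at 842 ± 127, Lcn2 at 565 ± 208, Orm2 at 290 ± 51.1 and Crp at 115 ± 15.9 CPM per kb (SD, n = 4). The serum amyloid A genes came last, with Saa1 at 58.0 ± 19.5, Saa2 at 29.5 ± 12 and Saa3 at 20.3 ± 6.07 CPM per kb. Apcs overlapped Orm1, Lcn2 overlapped Orm2, and Saa2 overlapped both Saa1 and Saa3 in their ranges over control livers, and the other neighbours in this order did not overlap. In Nnmt KO mice Hpx (4810 ± 707 CPM per kb) was still above Hp (3060 ± 430), and Orm1 (832 ± 237) was above Apcs (738 ± 312), which did not differ beyond their spread. With all annotated exons of a gene as its length, Orm2 was above Lcn2 and the order was otherwise as given.

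Genes that act on or with these 10 were taken from 4 lists. Of 22 further acute phase genes that inflammation raises, 21 were tested, 1 passed an unadjusted p of 0.05 in the higher direction and 0 in the lower by edgeR's test, against 5.45% and 7.13% of all tested genes. This balance was not stable: 1 was higher and 6 were lower with library size only, and 1 was higher and 5 were lower both with DESeq2 and without control c. Over all tested genes, 834 were higher and 1091 lower in the TMM-scaled test, and 818 and 620 with library size only. These counts were 1017 and 1161 with DESeq2, and 1086 and 1108 without control c. The 1 gene of the TMM-scaled test was Cp, the copper carrier ceruloplasmin, at 748 ± 116 CPM in Nnmt KO and 573 ± 112 CPM in control mice (log2 fold change 0.39, standard error 0.17, unadjusted p = 0.0453, adjusted p = 0.385). Without Nnmt KO c or d or control a or b its unadjusted p was over 0.05, with log2 fold changes of 0.29 to 0.37. The next in order of p were the protease inhibitors Serpina1d (log2 fold change -0.59), Itih4 (-0.46) and Serpina1a (-0.51), with edgeR's unadjusted p = 0.053, 0.0639 and 0.0667 and overlapping libraries. Without control b they were -0.36, -0.21 and -0.29. The Serpina1 genes are near copies, between which reads may have been split. The median log2 fold change of the 21 genes was -0.09.

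Of 13 genes that inflammation lowers, 1 passed in the higher direction and 0 in the lower, against 5.45% and 7.13% of all tested genes. It was Igf1, insulin-like growth factor 1, at 203 ± 53.5 CPM in Nnmt KO and 150 ± 24.3 CPM in control mice (log2 fold change 0.44, standard error 0.19, unadjusted p = 0.0386 by edgeR's test, adjusted p = 0.364). Its unadjusted p was over 0.05 in 5 of the 8 fits with 1 library left out, and its log2 fold change was 0.26 without Nnmt KO d. Fetub, Apoa4 and Serpina6 followed, with log2 fold changes of -0.38, -0.51 and -0.38 and unadjusted p of 0.0753, 0.0952 and 0.118 by edgeR's test. Without Nnmt KO a, Apoa4 was at -0.85 (edgeR's unadjusted p = 0.00113, adjusted p = 0.0782). Fetub was at -0.19 without control b and Serpina6 at -0.12 without control a. Alb, serum albumin and also a hepatocyte marker, was at 75700 ± 18900 and 73000 ± 11300 CPM (log2 fold change 0.05, standard error 0.25). The median of the 13 was -0.18.

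Of 45 genes for inducing cytokines, receptors, signal carriers and transcription factors found in the table, 42 were tested. At an unadjusted p under 0.05 by edgeR's test, 0 were higher and 2 lower, against 5.45% and 7.13% of all tested genes. Cebpa, a C/EBP factor that keeps hepatocyte genes active, was at 153, 187, 166 and 187 CPM in Nnmt KO a to d and at 302, 303, 227 and 241 CPM in control a to d. All Nnmt KO livers were below all control livers. The log2 fold change was -0.63 (standard error 0.14, edgeR's unadjusted p = 0.000646, adjusted p = 0.0778, DESeq2 adjusted p = 0.00138), and -0.55 to -0.70 with 1 library left out. It lies on chromosome 7 in the same 25 Mb stretch as the Saa genes, -0.57 from the median of the other tested genes there. Nfkb2, a subunit of NF-kB, was at 18.2 ± 4.26 and 23.8 ± 3.32 CPM (log2 fold change -0.38, edgeR's unadjusted p = 0.0479, adjusted p = 0.391). It was -0.24 without Nnmt KO d and -0.26 without control a. Bcl3 (-0.28) and Relb (-0.41), which act in the same pathway, had edgeR's unadjusted p of 0.0683 and 0.0741. Without Nnmt KO a, Relb was at -0.64 (edgeR's unadjusted p = 0.00327, adjusted p = 0.121). In that fit, 8 genes of the list were called at an unadjusted p under 0.05, 3 higher and 5 lower. Over all genes, the same fit called 904 higher and 1148 lower, against 834 and 1091 with every library. The other fits that left out 1 library called 1 to 5 genes of the list.

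Of the inducing cytokines, Il6 was close to 0 and Il1b and Tnf were low but measured. Il6 was under the filter, with values above 0 in 1 Nnmt KO liver and 2 control livers, and Il1b was at 2.09 ± 1.09 CPM in Nnmt KO and 2.15 ± 1.17 CPM in control mice. Tnf was at 0.714 ± 0.476 and 0.904 ± 0.428 CPM. Stat3 (158 ± 10.5 and 160 ± 28.9 CPM), its inhibitor Socs3 (13.1 ± 3.42 and 11.8 ± 1.59 CPM), Cebpb (33.2 ± 16.2 and 25.8 ± 8.25 CPM) and the glucocorticoid receptor gene Nr3c1 (26.9 ± 0.716 and 25.3 ± 3.49 CPM) overlapped between genotypes, with edgeR's unadjusted p from 0.275 to 0.899. The median log2 fold change of the 42 genes was 0.04.

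Of 20 receptors and partners found in the table, 18 were tested. At an unadjusted p under 0.05, 0 were higher and 0 lower by edgeR's test, and 1 was higher by DESeq2. Over all tested genes the shares were 5.45% and 7.13% by edgeR's test, and 14.2% in either direction by DESeq2. None of the 18 had an adjusted p under 0.05 by edgeR's test. The 4 with the smallest p were Cd163, the macrophage receptor for haemoglobin bound to haptoglobin (log2 fold change 0.75), Hmox1, the enzyme that breaks down heme (0.37), Scarb1, a receptor for high-density lipoprotein (-0.29), and Tlr4, a receptor for bacterial endotoxin (0.71). Their unadjusted p by edgeR's test ran from 0.0548 to 0.0961. Without Nnmt KO a, Hmox1 was at 0.15, Tlr4 at 0.41 and Cd163 at 0.93 (edgeR's unadjusted p = 0.0154), and Scarb1 was at -0.16 without control b. Cd163 was at 16.2 ± 4.49 CPM in Nnmt KO and 9.63 ± 4.94 CPM in control mice. Hmox1 was at 130 ± 38.6 and 101 ± 15.1 CPM. The median of the 18 genes was 0.09.

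**Figure D5:**
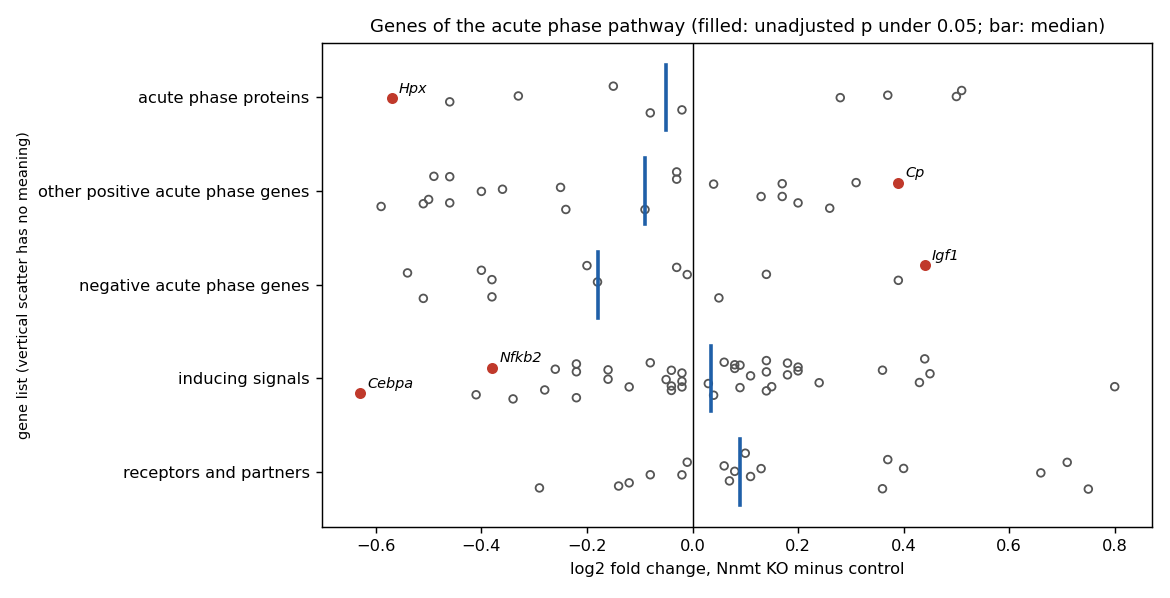
Log2 fold change (Nnmt KO minus control, horizontal axis) of every tested gene in the 10 acute phase proteins and the 4 lists of related genes. Filled points have an unadjusted p under 0.05 by edgeR's test and blue bars are medians. The filled points are Hpx, Cebpa and Nfkb2 below 0 and Cp and Igf1 above 0.

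Markers of the cells in the sample were counted for comparison with these values. The liver label held, with Alb the most abundant of 8 hepatocyte markers, which summed to 64700 to 116000 CPM in Nnmt KO and 79100 to 118000 CPM in control livers. Macrophage markers (11 of 12 found, led by Lyz2) summed to 866 to 1750 and 719 to 1760 CPM, highest in Nnmt KO a (1750) and control d (1760). Saa2 was highest of its genotype in the same livers, whereas Saa3 was lowest of its genotype in Nnmt KO a and highest in control d, and Saa1 was highest in Nnmt KO d and control d. Cholangiocyte markers, led by Spp1, summed to 91.6 to 286 and 51.8 to 171 CPM, and all 7 had a log2 fold change above 0, with 2 at an unadjusted p under 0.05. Stellate and fibroblast markers, led by Dcn, summed to 487 to 940 and 374 to 582 CPM. All 9 were above 0, with 3 at an unadjusted p under 0.05. The 940 CPM was that of Nnmt KO a, and Nnmt KO b, c and d were at 539, 487 and 528 CPM, within the control range. Lymphocyte markers, led by Cd4, summed to 5.82 to 7.38 and 4.47 to 5.26 CPM, without overlap. Of all tested genes, 5.45% were higher at an unadjusted p under 0.05 by edgeR's test. All Nnmt KO livers were above all control livers for 3.34% of tested genes. Endothelial markers, led by Stab2, summed to 200 to 227 and 153 to 292 CPM, and erythroid markers, led by Hbb-bs, to 589 to 765 and 618 to 1000 CPM. Adipocyte and mesothelial markers, led by Plin4, summed to 47.8 to 69.4 and 38.7 to 77.6 CPM, with Adipoq, Plin1 and Lep at 0. The part of these cells in the values of Saa1, Saa2, Saa3 and Hpx was not tested.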

How the data were processed

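Liver RNA-seq of 4 Nnmt KO and 4 control mice was used. The authors deposited raw gene counts in whole numbers. The submitters' processing notes name HISAT2, StringTie and mm10, and the annotation and strand setting are not given in the sources used here. The paper names the KAPA RNA HyperPrep kit and the labels name NEBNext Ultra. Genes were placed in GENCODE M21. Genes kept by filterByExpr (minimum count 10) were tested with edgeR 4.0.16 in R 4.3.3 (TMM, quasi-likelihood), and p-values were Benjamini-Hochberg adjusted over 15291 genes. DESeq2 1.42.0, other scalings, no filter, summed copies and leaving out each library were alternatives. The test was first tried on simulated data. All members were named. From each list, genes at an adjusted p under 0.05, up to 4 with the smallest p, and preset cytokine, STAT3, C/EBP and glucocorticoid genes were named. The members and lists were chosen with earlier results of these data known. Libraries of a genotype differed beyond sampling noise (chi-square per degree of freedom 42.4 to 264.4). Each sample was taken as 1 mouse, as titled. The 95% confidence intervals are for the log2 fold change. They rest on the spread between the 4 mice of each genotype, which edgeR moderates over all tested genes.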

Additional observations from a re-analysis of the deposited data

Results flagged for a closer look

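One library lay far from the other 3 of its genotype in 5 of 28 groups looked at. Chance alone does this in about 1 in 20 groups (1.4 here) if the groups are independent. These groups share libraries and scaling factors, so the 5 cannot be judged against that number. These were Orm1 in Nnmt KO d at 919 CPM, Crp in control b at 234 CPM, Apcs in control b at 1240 CPM, Saa4 in control b at 135 CPM, and the TMM factor of Nnmt KO a at 1.209. With library size alone for scaling, the gaps of Orm1 (0.5 of the group's range), Crp (0.552), Apcs (0.536) and Saa4 (0.716) were no longer past the 95% critical value. With that scaling, Hpx in control a (a gap of 0.857) and Orm3 in Nnmt KO b (0.841) were past it instead.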

How the results depend on the processing

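No paired analysis was possible because the columns of the count table carry no mouse number. Of the 10 genes, DESeq2 called 1 at an adjusted p and 2 at an unadjusted p under 0.05, and with 1 library left out 1 to 4 were called at an unadjusted p (0 at an adjusted p in each). The 4 were called without control d, a fit that called 2178 of all tested genes, against 1925 (12.6%) with every library. Over all genes, the count at an adjusted p was 49, and 30 with DESeq2's size factors, 22 with library size only, 8 with no filter, 508 with DESeq2 and 6 to 149 with 1 library left out (149 without Nnmt KO a). The count at an unadjusted p was 1259 to 2194 with 1 library left out (2052 without Nnmt KO a). It was 834 higher and 1091 lower with TMM, 818 and 620 with library size only, and 1017 and 1161 with DESeq2. At an unadjusted p, further genes raised by inflammation numbered 7 with library size only (6 of them lower in Nnmt KO) and 6 with DESeq2 (5 lower), and 0 to 6 with 1 library left out, genes lowered by inflammation 2 with library size only (0 to 2), inducing signals 1 with DESeq2's size factors and 1 with no filter (1 to 8, the 8 without Nnmt KO a), and receptors 1 with library size only and 1 with DESeq2 (0 to 3). With library size only, the log2 fold change turned sign for Orm1 (0.03), Il1b (0.04) and Stat3 (0.05). With 1 library left out, the range included both signs for Orm1 (-0.24 to 0.08), Hp (-0.17 to 0.07), Alb (-0.04 to 0.22), Cebpb (-0.04 to 0.54), Il1b (-0.41 to 0.40), Stat3 (-0.09 to 0.12) and Tnf (-0.87 to 0.01). The causes were not tested. Hpx had an unadjusted p under 0.05 in 13 of 13 alternatives, with adjusted p from 0.0136 to 0.397, and an adjusted p under 0.05 in 1 of them. With 4 mice a genotype, the 95% intervals of Saa1 (-0.02 to 1.04), Saa2 (-0.11 to 1.10) and Saa3 (-0.05 to 0.80) all included 0.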
